A study of Drosophila melanogaster with 12 samples.

Results

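The 70 sequences described here are the parts of LTR retrotransposons that remained, among 122 rows of that type, once the rows named for gypsy, DM297, mdg1, blood, copia (COPIA_DM), the BEL and Pao elements (BEL, Batumi, Diver, roo, Max) and ninja were left out by name. They belong to 39 elements in 29 name families, of which INVADER was the largest with 12 rows, and the tables hold 203 repeats in all. A row whose name contains LTR was taken as a terminal part (35 rows) and any other row as an internal part (35 rows). The names CIRCE, DM176, ROVER_DM and MDG3_DM carry no mark of a part, so these rows may stand for whole elements. MDG3_DM was still paired with LTRMDG3_DM as its internal part. The rule of choice used names and the authors' repeat type, and no measured value. It was set with earlier results of these data known. INVADER5_LTR was listed for H3K9me3 only, which left 69 rows for H3K36me3.

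The study set KDM4A RNAi against GFP RNAi in S2 cells, a cultured line derived from Drosophila melanogaster embryos. Double-stranded RNA was given with the DOTAP transfection reagent for 5 days to deplete KDM4A, or against GFP as a control sequence that the fly genome lacks, so that both groups had been transfected. Chromatin was fixed for 10 min, and each immunoprecipitation used 5 µg of antibody against H3K9me3 or H3K36me3. The labels list 12 libraries, 2 for each mark and treatment and 2 inputs for each treatment, whereas the deposited tables hold 1 mean enrichment per repeat, mark and treatment.

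LTR retrotransposons copy themselves through RNA. The internal part carries the gag and pol genes, and some elements of the gypsy group also carry an env-like gene for an envelope protein. The long terminal repeats (LTRs) at both ends hold the promoter and the polyadenylation signal, and recombination between them can leave a lone LTR in the genome, so a terminal part may be measured at insertions that have lost the internal part. H3K9me3 marks heterochromatin, where many old insertions lie, and H3K36me3 marks transcribed gene bodies. KDM4A is a Jumonji-domain demethylase that acts on both residues and, in flies, binds the heterochromatin protein HP1a.

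Each value is a linear enrichment ratio for a part of a family, and how reads from its many copies were counted is not stated. What the ratio was taken over is not stated, so a ratio of 1 is used only as a line to count against. The labels do not say which libraries each mean was made from, and without values per library no difference has a replicate check, a standard deviation or a p-value. The depth behind the values is unknown, and the level of KDM4A was not measured in these tables. All differences are therefore descriptions of the deposited means, given as the log2 ratio of KDM4A RNAi to GFP RNAi. The column medians of the whole tables differed by 0.03 on this log2 scale for H3K9me3 and by -0.09 for H3K36me3. A direction that turns when these shifts are removed (columns centred on their medians) is named as such. Both marks may draw on the same input libraries, so their differences are set side by side and not correlated.

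In H3K9me3 the elements covered a wide range, from families with little of the mark to some of the most enriched transposons. The median enrichment of the 70 rows was 2.42 in KDM4A RNAi cells and 2.34 in GFP RNAi cells, and 62 rows were above 1 in KDM4A RNAi cells and 61 in GFP RNAi cells. Over all repeats the median was 2.37 in KDM4A RNAi cells and 2.32 in GFP RNAi cells. Of all repeats 84.2% were above 1 in KDM4A RNAi cells and 84.7% in GFP RNAi cells. The highest levels of the members were at internal parts. Chouto_I had 4.74 after KDM4A RNAi and 4.35 after GFP RNAi. Chimpo_I had 4.43 in KDM4A RNAi cells and 4.08 in GFP RNAi cells. Bica_I had 4.48 after KDM4A RNAi and 4.08 after GFP RNAi, and INVADER6_I had 4.59 in KDM4A RNAi cells and 4.06 in GFP RNAi cells. These 4 internal parts ranked 10, 12, 13 and 14 of the 203 repeats in GFP RNAi cells, and each was higher after KDM4A RNAi. The highest terminal part was ACCORD2_LTR, with 3.83 after KDM4A RNAi and 3.75 after GFP RNAi.

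At the other end, STALKER2_I, the internal part of an element related to mdg1, had 0.477 in KDM4A RNAi cells and 0.587 in GFP RNAi cells. TIRANT_LTR, from an element of the gypsy group, had 0.607 after KDM4A RNAi and 0.701 after GFP RNAi. TRANSPAC_I had 0.784 in KDM4A RNAi cells and 0.754 in GFP RNAi cells, and TRANSPAC_LTR had 0.871 after KDM4A RNAi and 0.818 after GFP RNAi. Both parts of Tirant, Transpac and STALKER2 were below 1 under both treatments. STALKER2_LTR was near that line, with 0.998 in KDM4A RNAi cells and 0.931 in GFP RNAi cells. DM412_LTR, with 1.12 in KDM4A RNAi cells and 0.875 in GFP RNAi cells, was the fifth lowest row in GFP RNAi cells only, and was above 1 in KDM4A RNAi cells and below 1 in GFP RNAi cells. DM412 is a family known for its raised copy number in cultured fly cells.

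**Figure D1:**
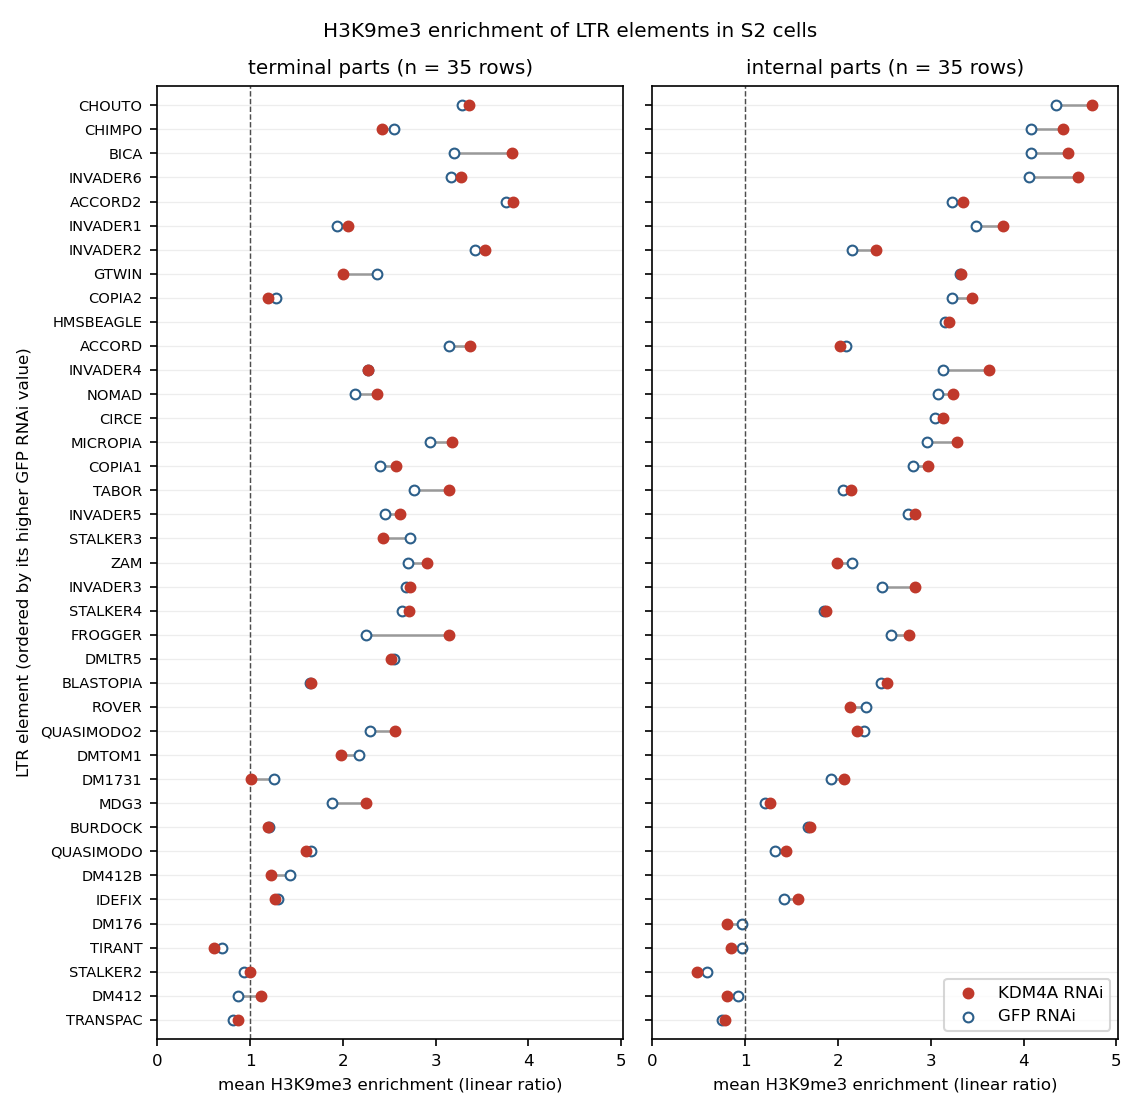
Mean H3K9me3 enrichment (x axis, linear ratio) of each LTR element (y axis) in KDM4A RNAi cells (filled points) and GFP RNAi cells (open points), with terminal parts on the left and internal parts on the right and no error bars, since each point is 1 deposited mean. CHOUTO, CHIMPO, BICA and INVADER6 lead the internal parts at 4.06 to 4.35 in GFP RNAi cells, and TRANSPAC, DM412, STALKER2 and TIRANT lie below 1 in GFP RNAi cells in both parts.

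After KDM4A RNAi, H3K9me3 was higher than in GFP RNAi cells at 49 of the 70 rows and lower at 21, where 64.5% of all repeats in the table were higher and 35.5% lower. With centred columns the members' counts were 42 and 28, against 55.7% and 44.3% of all repeats. The median log2 ratio of the members was 0.05, and that of all repeats 0.04. A difference of 1.2 times or more was seen at 4 rows, 2 higher and 2 lower, where 4.93% of all repeats were higher by that much and 7.39% lower. As deposited the members' shares were below these background values. When centred, 2 members were higher and 5 lower by 1.2 times or more. The share of all repeats was not computed for that setting.

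The 4 rows as deposited were FROGGER_LTR and DM412_LTR, which were higher, and DM1731_LTR and STALKER2_I, which were lower. STALKER2_I was closest to the threshold from inside, with 1.23 times. DM176, a gypsy-group element, was closest from outside, with 0.810 after KDM4A RNAi and 0.968 after GFP RNAi. In each of the 4, the other part of the same element differed less or in the opposite direction.

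H3K36me3 was below 1 at most of these rows, as it was at most repeats. The median of the 69 rows was 0.789 in KDM4A RNAi cells and 0.819 in GFP RNAi cells, and 21 rows were above 1 in KDM4A RNAi cells and 24 in GFP RNAi cells. Of all repeats 38.2% were above 1 in KDM4A RNAi cells and 40.2% in GFP RNAi cells. Among the members Bica stood highest. Bica_I had 2.19 in KDM4A RNAi cells and 2.18 in GFP RNAi cells, and Bica_LTR had 2.11 after KDM4A RNAi and 2.01 after GFP RNAi. INVADER4_I followed, with 1.81 in KDM4A RNAi cells and 1.79 in GFP RNAi cells. In GFP RNAi cells the next were INVADER4_LTR and INVADER5_I, which both had less of the mark after KDM4A RNAi and there lay below other rows such as STALKER4_I, with 1.49 in KDM4A RNAi cells and 1.55 in GFP RNAi cells. INVADER4_LTR had 1.41 after KDM4A RNAi and 1.62 after GFP RNAi, and INVADER5_I had 1.26 in KDM4A RNAi cells and 1.60 in GFP RNAi cells. The lowest was COPIA2LTR_DM, with 0.412 after KDM4A RNAi and 0.430 after GFP RNAi. DM412B_LTR, DM176, DM412_I and TABOR_I were also low, at 0.450 to 0.497 in KDM4A RNAi cells and 0.488 to 0.523 in GFP RNAi cells.

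**Figure D2:**
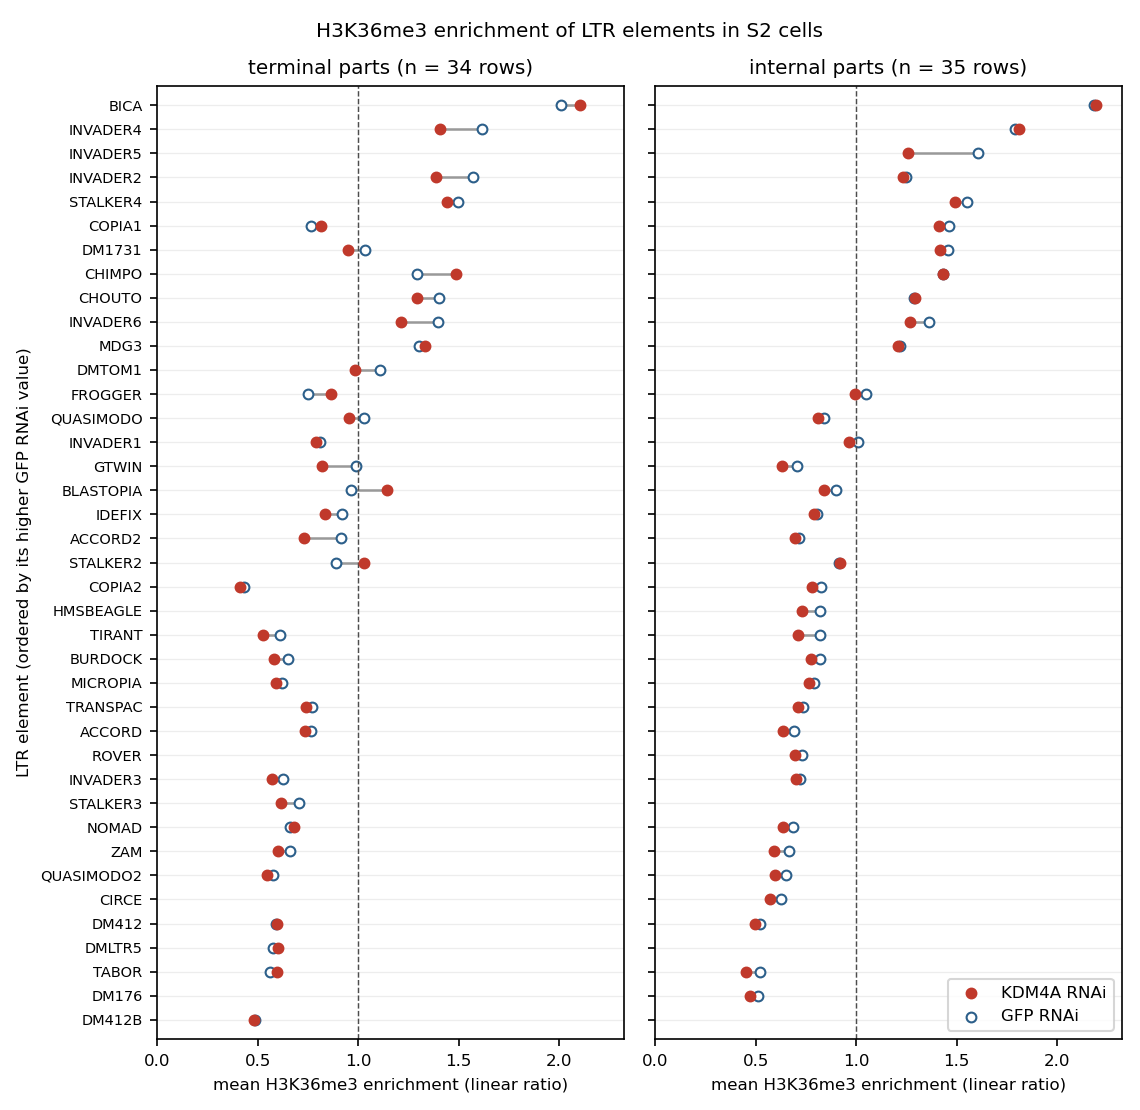
Mean H3K36me3 enrichment (x axis, linear ratio) of each LTR element (y axis) in KDM4A RNAi cells (filled points) and GFP RNAi cells (open points), with terminal parts on the left and internal parts on the right and no error bars. BICA stands highest in both parts at 2.01 to 2.19, and INVADER5 has the widest gap between treatments among the internal parts, with KDM4A RNAi cells lower.

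As deposited, H3K36me3 was lower after KDM4A RNAi at 54 of 69 rows and higher at 15, where 65.3% of all repeats were lower and 33.7% higher. Centring turned this majority, to 28 lower and 41 higher, against 37.7% and 62.3% of all repeats. The median log2 ratio of the members was -0.07 as deposited and 0.02 when centred, against -0.05 and 0.04 over all repeats. A difference of 1.2 times or more was seen at INVADER5_I, ACCORD2_LTR and GTWIN_LTR, all 3 lower, where 6.03% of all repeats were lower by that much. Of the members 0 were higher by 1.2 times, where 4.02% of all repeats were. As deposited GTWIN_LTR was closest to the threshold from inside with 1.21 times lower, and BLASTOPIA_LTR closest from outside with 1.18 times higher. These calls turned with centring. Then 4 rows were higher by 1.2 times or more (BLASTOPIA_LTR, STALKER2_LTR, FROGGER_LTR and Chimpo_LTR) and 0 were lower. The share of all repeats past 1.2 times was not computed with centred columns.

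The copia superfamily, which differs from the gypsy group in the order of its pol domains, held the widest gap in level between the parts of 1 element in each mark. It was represented by FROGGER, DM1731, COPIA1 and COPIA2, with 8 rows. FROGGER_LTR had the largest H3K9me3 increase of the 70 rows, with 3.14 in KDM4A RNAi cells and 2.25 in GFP RNAi cells, a log2 ratio of 0.48. Its internal part FROGGER_I had 2.77 after KDM4A RNAi and 2.57 after GFP RNAi. The terminal part was thus above the internal part after KDM4A RNAi and below it after GFP RNAi.

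DM1731 and COPIA2 had the opposite pattern. DM1731_LTR had 1.01 in KDM4A RNAi cells and 1.26 in GFP RNAi cells, the largest relative decrease among the members (log2 ratio -0.32). DM1731_I was higher, with 2.07 after KDM4A RNAi and 1.93 after GFP RNAi. COPIA2LTR_DM was also lower, with 1.195 in KDM4A RNAi cells and 1.28 in GFP RNAi cells. Its internal part was not: COPIA2I_DM had 3.44 after KDM4A RNAi and 3.23 after GFP RNAi. Both parts of COPIA1 were slightly higher, Copia1-LTR_DM with 2.57 in KDM4A RNAi cells and 2.40 in GFP RNAi cells, and Copia1-I_DM with 2.97 after KDM4A RNAi and 2.81 after GFP RNAi. All 4 internal parts of the superfamily had more H3K9me3 after KDM4A RNAi, also when centred, while the terminal parts were divided. Of all 35 internal parts among the members 27 were higher, and 23 when centred. Over all repeats these shares were 64.5% and 55.7%.

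In all 4 of these elements the terminal part had less of both marks than the internal part in GFP RNAi cells. For H3K9me3 this was widest in COPIA2, whose internal part was 2.52 times its terminal part in GFP RNAi cells. For H3K36me3 it was widest in COPIA1, with 0.764 at the terminal and 1.46 at the internal part in GFP RNAi cells, followed by COPIA2, with 0.430 at the terminal and 0.822 at the internal part. DM1731 came next, with 1.03 at the terminal and 1.46 at the internal part in GFP RNAi cells. In KDM4A RNAi cells the terminal part was below the internal part in 4 of 4 elements for H3K36me3 and in 3 of 4 for H3K9me3, FROGGER being the exception. FROGGER_LTR also had more H3K36me3, with 0.864 in KDM4A RNAi cells and 0.750 in GFP RNAi cells. FROGGER_I had 0.995 after KDM4A RNAi and 1.05 after GFP RNAi, a difference that turned positive when centred.

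INVADER, with 6 elements numbered 1 to 6, was the largest name family. Its H3K9me3 was higher after KDM4A RNAi at 11 of 12 rows, and at 10 of 12 when centred, where 64.5% of all repeats were higher as deposited and 55.7% when centred. All 6 internal parts were higher, with a median log2 ratio of 0.17, and of 0.14 when centred. INVADER4_I had 3.62 in KDM4A RNAi cells and 3.14 in GFP RNAi cells, the largest increase of any internal part among the members (log2 ratio 0.21). INVADER3_I had 2.83 after KDM4A RNAi and 2.47 after GFP RNAi. INVADER2_I had 2.41 in KDM4A RNAi cells and 2.16 in GFP RNAi cells. Next to these, INVADER6_I, whose levels are given above, had a log2 ratio of 0.18. INVADER1_I had 3.78 after KDM4A RNAi and 3.49 after GFP RNAi. INVADER5_I differed least of the 6, with 2.83 in KDM4A RNAi cells and 2.76 in GFP RNAi cells.

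The INVADER terminal parts differed less between treatments. Their median log2 ratio in H3K9me3 was 0.05, and 0.01 when centred, with the 6 values as deposited between -0.004 and 0.093. INVADER4_LTR was the only lower row as deposited, with 2.27 after KDM4A RNAi and 2.28 after GFP RNAi. INVADER3_LTR, with 2.73 in KDM4A RNAi cells and 2.68 in GFP RNAi cells, joined it when centred. The other 4 were higher under both scalings. INVADER1_LTR had 2.06 after KDM4A RNAi and 1.93 after GFP RNAi. INVADER2_LTR had 3.53 in KDM4A RNAi cells and 3.42 in GFP RNAi cells. INVADER5_LTR had 2.62 after KDM4A RNAi and 2.45 after GFP RNAi, and it is the only INVADER terminal part with a larger log2 ratio than its internal part. INVADER6_LTR had 3.27 in KDM4A RNAi cells and 3.17 in GFP RNAi cells.

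For H3K36me3 the INVADER terminal parts were lower after KDM4A RNAi in 5 of 5 rows as deposited and in 4 of 5 when centred, INVADER1_LTR being the one that turned, where 65.3% of all repeats were lower as deposited and 37.7% when centred. Their median log2 ratio was -0.18 as deposited and -0.09 when centred. INVADER2_LTR had 1.39 after KDM4A RNAi and 1.57 after GFP RNAi. INVADER6_LTR had 1.21 in KDM4A RNAi cells and 1.40 in GFP RNAi cells. INVADER4_LTR, whose levels are given above, had a log2 ratio of -0.20. Of the internal parts INVADER5_I was furthest from its GFP RNAi value among all 69 rows as deposited (log2 ratio -0.35). The other INVADER internal parts lay between -0.11 and 0.02. When centred, INVADER1_I, INVADER2_I and INVADER3_I turned positive, and the median of the 6 internal parts moved from -0.05 to 0.04. INVADER6_I had 1.27 after KDM4A RNAi and 1.36 after GFP RNAi. INVADER1_I had 0.963 in KDM4A RNAi cells and 1.01 in GFP RNAi cells. INVADER2_I had 1.23 after KDM4A RNAi and 1.25 after GFP RNAi. INVADER3_I was the lowest of the INVADER internal parts in level, with 0.702 in KDM4A RNAi cells and 0.719 in GFP RNAi cells. The lowest of the INVADER terminal parts also belonged to this element, as INVADER3_LTR had 0.571 after KDM4A RNAi and 0.624 after GFP RNAi, next to INVADER1_LTR with 0.789 in KDM4A RNAi cells and 0.809 in GFP RNAi cells. As deposited, INVADER4 thus had more H3K9me3 at the internal part and less H3K36me3 at the terminal part. Its remaining values as deposited were within 0.02 log2 units of those in GFP RNAi cells. When centred, H3K36me3 of INVADER4 was 0.11 higher at the internal part and 0.11 lower at the terminal part on the log2 scale.

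The 2 ACCORD elements had more H3K9me3 at the terminal than at the internal part under both treatments. ACCORD_LTR had 3.37 after KDM4A RNAi and 3.15 after GFP RNAi. ACCORD_I had 2.02 in KDM4A RNAi cells and 2.08 in GFP RNAi cells, the only lower row of the 4 as deposited. ACCORD2_LTR, whose levels are given above, was higher as deposited by 0.03 on the log2 scale and turned to -0.002 when centred. ACCORD2_I had 3.35 after KDM4A RNAi and 3.22 after GFP RNAi. As deposited all 4 ACCORD rows had less H3K36me3 after KDM4A RNAi, and 2 of 4 when centred, where 65.3% and 37.7% of all repeats were lower. ACCORD2_LTR had the second largest H3K36me3 decrease of the members, with 0.729 in KDM4A RNAi cells and 0.916 in GFP RNAi cells, a log2 ratio of -0.33. Its internal part differed little, with 0.693 after KDM4A RNAi and 0.713 after GFP RNAi. ACCORD_I remained lower when centred, with 0.634 in KDM4A RNAi cells and 0.690 in GFP RNAi cells, and ACCORD_LTR did not, with 0.733 after KDM4A RNAi and 0.763 after GFP RNAi.

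BURDOCK, a gypsy-group element, hardly differed in H3K9me3. BURDOCK_LTR had 1.19 in KDM4A RNAi cells and 1.21 in GFP RNAi cells. BURDOCK_I had 1.70 after KDM4A RNAi and 1.68 after GFP RNAi. The log2 ratios of -0.02 and 0.02 were both below 0 when centred. H3K36me3 was lower at both parts as deposited. BURDOCK_LTR had 0.583 in KDM4A RNAi cells and 0.650 in GFP RNAi cells. BURDOCK_I had 0.775 after KDM4A RNAi and 0.818 after GFP RNAi, which turned positive when centred.

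Elements related to gypsy, many of which carry or are thought to have carried an envelope-like gene, gave 19 rows (ZAM, Idefix, Tirant, Nomad, Gtwin, Quasimodo, Rover, DM176, Tabor and HMS-Beagle). ZAM and Idefix are known in flies as targets of the flamenco locus, a source of piRNAs in ovarian somatic cells. In H3K9me3 the list was split, with 10 rows higher and 9 lower after KDM4A RNAi, and 8 and 11 when centred. Over all repeats 64.5% were higher as deposited and 55.7% when centred. Its median log2 ratio was 0.005 as deposited and turned to -0.026 when centred, against 0.04 and 0.01 over all repeats.

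Within this list TABOR_LTR had the largest H3K9me3 increase, with 3.15 in KDM4A RNAi cells and 2.77 in GFP RNAi cells, a log2 ratio of 0.19. QUASIMODO2-LTR_DM had 2.56 after KDM4A RNAi and 2.30 after GFP RNAi, and NOMAD_LTR had 2.37 in KDM4A RNAi cells and 2.13 in GFP RNAi cells. On the lower side, next to DM176, GTWIN_LTR had 2.00 after KDM4A RNAi and 2.37 after GFP RNAi, a log2 ratio of -0.24. Tirant was the only element of the 31 with both parts lower in H3K9me3 as deposited, and TIRANT_I had 0.844 in KDM4A RNAi cells and 0.966 in GFP RNAi cells. The parts of ZAM differed in direction. ZAM_LTR had 2.91 after KDM4A RNAi and 2.71 after GFP RNAi, and ZAM_I had 1.99 in KDM4A RNAi cells and 2.15 in GFP RNAi cells.

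H3K36me3 of the same list was low, with a median of 0.634 in KDM4A RNAi cells and 0.683 in GFP RNAi cells, against 0.844 and 0.898 over all repeats. It was lower after KDM4A RNAi at 17 of 19 rows, and at 13 of 19 when centred, where 65.3% and 37.7% of all repeats were lower. The median log2 ratio was -0.13, and -0.04 when centred. GTWIN_LTR had 0.819 after KDM4A RNAi and 0.990 after GFP RNAi. TABOR_I had 0.450 in KDM4A RNAi cells and 0.523 in GFP RNAi cells, and TIRANT_LTR had 0.526 after KDM4A RNAi and 0.610 after GFP RNAi. These were the largest decreases of the list, at -0.21 to -0.27 on the log2 scale. TABOR_LTR was higher, with 0.597 in KDM4A RNAi cells and 0.562 in GFP RNAi cells, as was NOMAD_LTR, with 0.679 after KDM4A RNAi and 0.661 after GFP RNAi. Gtwin, Tirant, ZAM and the lone rows HMSBEAGLE_I and DM176 were lower at every row, also when centred. No test of the list was made, and rows of 1 element share their insertions, so the count does not show that the list differs from other repeats.

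The mdg1-like rows, from DM412 and the Stalker elements, held some of the lowest H3K9me3 levels and large splits between parts. DM412_LTR, whose levels are given above, was higher after KDM4A RNAi with a log2 ratio of 0.36, whereas DM412_I was lower, with 0.803 in KDM4A RNAi cells and 0.923 in GFP RNAi cells. DM412B_LTR, the terminal part of a variant, was lower too, with 1.22 after KDM4A RNAi and 1.44 after GFP RNAi. STALKER2_I was lower with a log2 ratio of -0.30, and STALKER2_LTR was higher, with 0.998 in KDM4A RNAi cells and 0.931 in GFP RNAi cells. The parts of DM412 differed by 0.56 log2 units and those of STALKER2 by 0.40, the largest and the third largest gaps among the 31 elements.

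The other Stalker rows had more of the mark. STALKER3_LTR, a terminal row without an internal partner, had 2.43 after KDM4A RNAi and 2.72 after GFP RNAi for H3K9me3. For H3K36me3 it had 0.614 in KDM4A RNAi cells and 0.707 in GFP RNAi cells, so it was lower in both marks. Both parts of STALKER4 were within 0.06 log2 units of their GFP RNAi values in both marks.

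The mdg3-like rows (mdg3, Micropia and Blastopia) all had more H3K9me3 after KDM4A RNAi, at 6 of 6 as deposited and 5 of 6 when centred, where 64.5% and 55.7% of all repeats were higher. The row that turned was BLASTOPIA_LTR. LTRMDG3_DM had 2.25 after KDM4A RNAi and 1.89 after GFP RNAi, a log2 ratio of 0.25. MDG3_DM had 1.27 in KDM4A RNAi cells and 1.22 in GFP RNAi cells. The parts of Micropia were alike in level and in difference. MICROPIA_LTR had 3.17 after KDM4A RNAi and 2.94 after GFP RNAi, and MICROPIA_I had 3.28 in KDM4A RNAi cells and 2.96 in GFP RNAi cells. In H3K36me3 the parts of Blastopia went apart. BLASTOPIA_LTR had the largest increase of the 69 rows, with 1.14 after KDM4A RNAi and 0.966 after GFP RNAi, a log2 ratio of 0.24. BLASTOPIA_I was lower, also when centred, with 0.838 in KDM4A RNAi cells and 0.898 in GFP RNAi cells.

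Among the elements in none of these lists, Bica was high in both marks. Bica_LTR had 3.82 after KDM4A RNAi and 3.20 after GFP RNAi for H3K9me3 (log2 ratio 0.26), the third largest increase of the members, and Bica_I had a log2 ratio of 0.14. Chouto had more H3K9me3 at both parts, with 3.36 in KDM4A RNAi cells and 3.28 in GFP RNAi cells at its terminal part. Chimpo_LTR was lower in H3K9me3, with 2.42 after KDM4A RNAi and 2.55 after GFP RNAi. In H3K36me3 it was higher, with 1.49 in KDM4A RNAi cells and 1.29 in GFP RNAi cells. Transpac had more H3K9me3 at both parts in spite of its low level, by 0.06 at the internal and 0.09 at the terminal part on the log2 scale.

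The rest are rows with no partner in the tables. DMTOM1_LTR was lower in both marks, also when centred. It had 1.98 after KDM4A RNAi and 2.17 after GFP RNAi for H3K9me3, and 0.983 in KDM4A RNAi cells and 1.11 in GFP RNAi cells for H3K36me3. CIRCE combined a high H3K9me3 level, with 3.13 after KDM4A RNAi and 3.05 after GFP RNAi, with low H3K36me3, at 0.573 in KDM4A RNAi cells and 0.625 in GFP RNAi cells. DMLTR5 had 2.51 after KDM4A RNAi and 2.55 after GFP RNAi for H3K9me3, a difference of -0.02 on the log2 scale. ROVER_DM was lower in H3K9me3, with 2.13 in KDM4A RNAi cells and 2.31 in GFP RNAi cells.

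**Figure D3:**
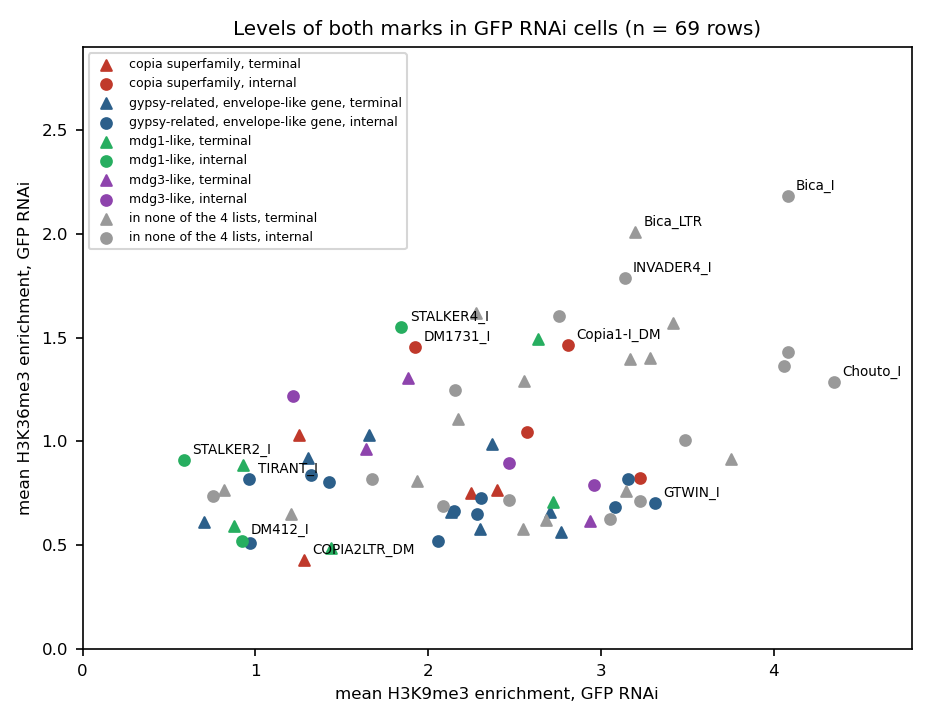
Mean enrichment of H3K9me3 (x axis) and H3K36me3 (y axis) in GFP RNAi cells for the 69 rows in both tables, coloured by list, with triangles for terminal and circles for internal parts. Bica_I and Bica_LTR lie high in both marks, GTWIN_I has 3.31 for H3K9me3 with 0.705 for H3K36me3, and both parts of DM412 and Tirant are below 1 in both.

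Within these elements the H3K9me3 differences were ordered by the level of the mark. Of the 23 rows with the highest mean level (2.81 to 4.54, mean of both treatments), 23 had more H3K9me3 after KDM4A RNAi, and 20 when centred, with a median log2 ratio of 0.10. Of the 23 rows at middle levels 14 were higher, with a median of 0.04. Of the 24 rows with the lowest level (0.532 to 2.05) 12 were higher, with a median of -0.01. Over all levels 64.5% of all repeats were higher, and 55.7% when centred. The other repeats were not split by level, so whether they share this order is not known. Level and ratio come from the same values, and rows of 1 element are not independent, so no test was made. In H3K36me3 the medians as deposited were -0.05 for the 23 rows with the highest level, -0.06 for the middle and -0.11 for the lowest. When centred they were 0.04, 0.03 and -0.03, so those of the highest and middle levels turned positive.

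**Figure D4:**
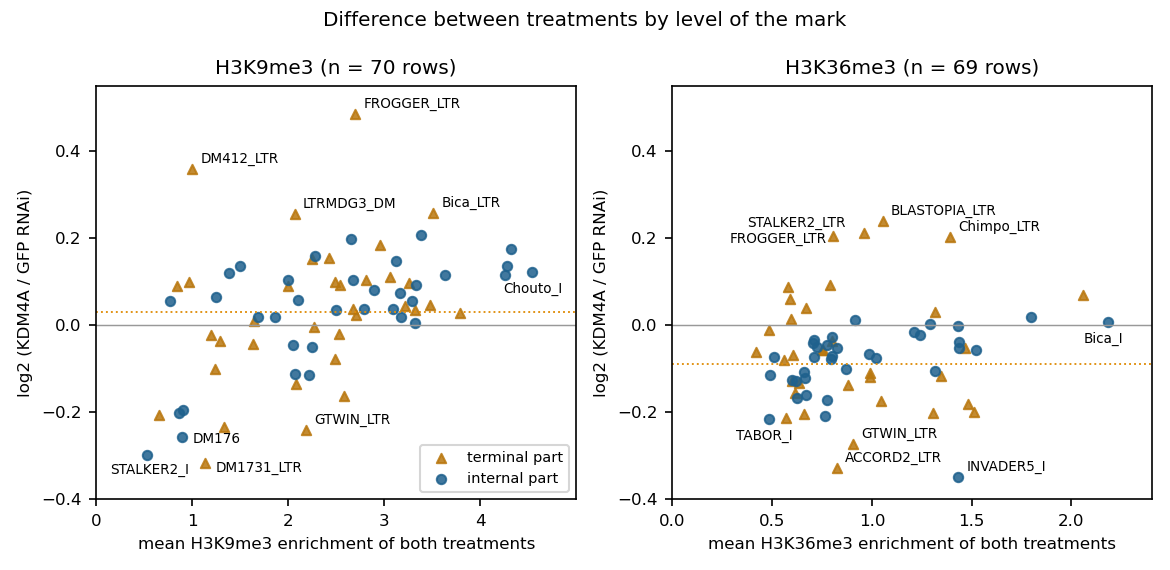
Log2 ratio of KDM4A RNAi to GFP RNAi (y axis) against the mean enrichment of both treatments (x axis, linear) for each row, with triangles for terminal and circles for internal parts. The grey line is no difference and the dotted line the shift of the column medians of the whole table (0.03 for H3K9me3, -0.09 for H3K36me3), and the 23 rows with the most H3K9me3 all lie above the grey line.

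Terminal and internal parts could be set side by side in 31 elements for H3K9me3 and 30 for H3K36me3. The terminal part had more H3K9me3 in 13 elements and the internal part in 18 in KDM4A RNAi cells, and in GFP RNAi cells these counts were 12 and 19. The order was the same under both treatments in 28 of 31 elements. The median log2 ratio of terminal to internal level was -0.11 in KDM4A RNAi cells and -0.17 in GFP RNAi cells, and in GFP RNAi cells the single values ran from -1.33 (COPIA2) to 0.67 (STALKER2). Elements therefore differed in which part carried more of the mark. In GFP RNAi cells INVADER1 had 1.93 at the terminal and 3.49 at the internal part, and Chimpo had 2.55 at the terminal and 4.08 at the internal part. INVADER2 had the reverse order, with 3.42 at the terminal and 2.16 at the internal part.

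For H3K36me3 the terminal part was higher in 16 of 30 elements in KDM4A RNAi cells and in 13 of 30 in GFP RNAi cells. Terminal over internal level had a median log2 ratio of 0.02 in KDM4A RNAi cells and -0.04 in GFP RNAi cells, so the parts were close on balance. Outside the copia superfamily the widest gap was in GTWIN, with 0.990 at the terminal and 0.705 at the internal part in GFP RNAi cells. In H3K9me3 the order of the parts of GTWIN was the reverse, with 2.37 at the terminal and 3.31 at the internal part in GFP RNAi cells.

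The parts of 1 element often differed in direction. In H3K9me3 both parts were higher after KDM4A RNAi in 17 elements, both lower in 1 and opposite in 13, and when centred the counts were 13, 3 and 15. The gap between the log2 ratios of terminal and internal part had a median size of 0.13 and reached 0.56, in DM412. The median size of the log2 ratios themselves was 0.10 at terminal and 0.10 at internal parts, although a gap carries the scatter of both values. In H3K36me3 both parts were higher in 2 elements, both lower in 18 and opposite in 10, and when centred the counts were 12, 4 and 14. There the gap had a median size of 0.09 and reached 0.34, in BLASTOPIA.

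The extremes lay mostly at terminal parts, chiefly among the increases. Of the 5 largest decreases in each mark 3 were terminal. The largest H3K36me3 difference as deposited was at an internal part, INVADER5_I. Of the 10 rows furthest from 0 in log2 ratio, 7 were terminal for H3K9me3 and 7 for H3K36me3, and after centring these numbers were 7 and 9. All 5 of the largest H3K36me3 increases were at terminal parts (BLASTOPIA_LTR, STALKER2_LTR, FROGGER_LTR, Chimpo_LTR and Copia1-LTR_DM), as were 4 of the 5 largest H3K9me3 increases. STALKER2_LTR had 1.03 after KDM4A RNAi and 0.888 after GFP RNAi for H3K36me3, and Copia1-LTR_DM had 0.815 in KDM4A RNAi cells and 0.764 in GFP RNAi cells. The interquartile range of the log2 ratios was 0.14 at terminal and 0.11 at internal parts for H3K9me3, and 0.19 at terminal and 0.08 at internal parts for H3K36me3. The lengths of the parts and the reads behind them were not analysed here, and their part in this spread was not tested.

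**Figure D5:**
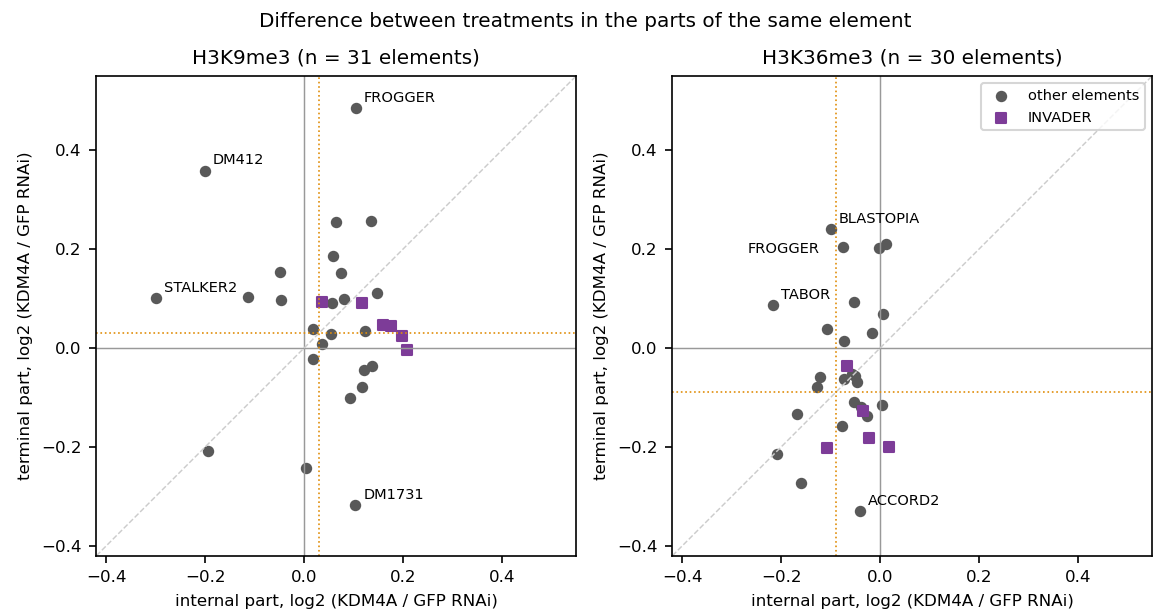
Log2 ratio of KDM4A RNAi to GFP RNAi at the terminal part (y axis) against the internal part (x axis) of the same element, with INVADER elements as squares, the dashed line where both parts are equal, and dotted lines at the shift of the column medians of the whole table. FROGGER, DM412, STALKER2 and DM1731 are furthest from the dashed line for H3K9me3, and all 6 INVADER elements lie right of 0 on the x axis there.

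Set against the remaining LTR retrotransposon rows, the members had a similar H3K9me3 level, with a median of 2.42 in KDM4A RNAi cells and 2.34 in GFP RNAi cells, against 2.52 and 2.49 in the 52 remaining rows. Log2 ratios had a median of 0.05 in the members and 0.04 in those rows. H3K36me3 was lower in the members, with a median of 0.789 in KDM4A RNAi cells and 0.819 in GFP RNAi cells, against 0.961 and 0.966 in 49 rows. Its median log2 ratio was -0.07 in the members and -0.02 in those rows. In GFP RNAi cells the internal part had more H3K9me3 than the terminal part in 19 of 31 member elements and in 19 of 25 others. With 1 mean per treatment none of these differences could be tested.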

How the data were processed

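The authors deposited 2 tables, 1 per antibody, with a linear enrichment ratio per repeat and RNAi treatment, to 3 decimals; the headers call these values means. The submitters' processing notes name Bowtie and MACS2 but neither a role nor a version. Genome build, repeat library, handling of reads that match many copies, denominator and depth scaling: not given in the sources used here. Each could shift a whole column or a whole family. Values per library, inputs and read counts were not analysed here, so the planned limma test across libraries was not run and nothing in the labels says whether the libraries numbered alike came from separate cultures.

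Member rows were taken by type and name. For each, log2(KDM4A RNAi mean / GFP RNAi mean) was computed without a pseudocount (Python 3.11.15, pandas 2.3.3, numpy 2.4.6), and the arithmetic was checked on simulated data. Parts were paired by name. Every member row could be named, with values for 4 families (INVADER, ACCORD, FROGGER, BURDOCK), the 5 largest and smallest log2 ratios and levels per mark, and the 5 widest level gaps between parts. Other values were chosen after they were seen. The members and lineage lists were chosen with earlier results of these data known. Of the 12 names in the gypsy-related list, SPRINGER and OPUS matched no row. Alternatives were a pseudocount of 1, centred columns, a level filter, means, 1 value per element, thresholds of 1.1 and 1.5 times and leaving out INVADER.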

Additional observations from a re-analysis of the deposited data

How the results depend on the processing

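No paired analysis was possible because each table gives only a mean for each treatment, and for the same reason no replicate could be left out. With no spread to judge by, every value that moved is given; centring shifts a whole column, the filters remove rows, and otherwise the cause was not tested. The median log2 ratio of the members in H3K9me3 (0.051) was 0.035 with a pseudocount of 1, 0.020 with centred columns, 0.093 over members at or above the median level of the table, 0.035 as a mean, 0.038 with 1 value per element and 0.038 without INVADER. That in H3K36me3 (-0.069) was -0.031, 0.020, -0.053, -0.069, -0.079 and -0.065 in the same order, so centring reversed it. Centring also turned the H3K36me3 counts, to 41 higher and 28 lower against 15 and 54 as deposited, and changed the direction of 26 of 69 rows, against 7 of 70 for H3K9me3. At or above the median level H3K9me3 was higher at 33 rows and lower at 3, and H3K36me3 higher at 9 and lower at 20. In H3K9me3, 12 rows were higher and 9 lower by 1.1 times, 0 and 0 by 1.5 times, and 2 and 5 by 1.2 times when centred. In H3K36me3 these counts were 4 and 15, 0 and 0, and 4 and 0. The shares of all repeats at these settings, and at or above the median level, were not computed. The median log2 level of terminal over internal parts in H3K9me3 (-0.168) was -0.111 in the KDM4A RNAi column, -0.121 with a pseudocount of 1 and -0.124 without INVADER. In H3K36me3 (-0.043) it was 0.017, which is reversed, -0.019 and -0.038.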

Other observations

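Within an element, the part with more H3K9me3 (mean of both treatments) also had the higher log2 ratio of KDM4A RNAi to GFP RNAi in 23 of 31 elements. These were 10 elements with the higher values at the terminal part, such as FROGGER, MDG3, TABOR and ZAM, and 13 with the higher values at the internal part, such as COPIA2, Chimpo, DM1731 and INVADER4. In the other 8 the part with less of the mark had the higher ratio, as in INVADER2, Bica and Nomad. For H3K36me3 the counts were 15 and 15 of 30. The level and the ratio are made from the same values, so a high value in KDM4A RNAi cells raises both, and no test was made.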
